A study of Mus musculus with 8 samples.

Results

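Hbb-bs, Hbb-bt, Hba-a1, Hba-a2 and Alas2 are the adult hemoglobin and heme synthesis genes of red cells, and their transcripts were read here in whole mouse brain. They were taken as the rows of the count table whose gene symbol is exactly one of these 5 names, out of 25815 genes, and all 5 passed the filter on low counts that left 16810 genes for testing. The study sequenced poly(A)-selected RNA from the brains of 5 mice carrying the D50A change in Cstf2 and of 3 wild-type (WT) mice, each a separate animal and library. Cstf2 encodes an RNA-binding subunit of the complex that directs cleavage and polyadenylation of pre-mRNA, and D50A replaces an aspartate in its RNA recognition motif. Mice of both genotypes were 50 days old, untreated, and on a C57BL/6NCrl background reached by 4 backcross generations followed by breeding within the colony. The mutation is carried in the germ line, so it is not restricted to the brain, and the labels give neither sex nor litter.

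Hemoglobin carries oxygen in red cells as a tetramer of alpha and beta chains around heme. The alpha chains come from Hba-a1 and Hba-a2, the adult beta chains from Hbb-bs and Hbb-bt, and ALAS2 catalyses the first step of heme synthesis in red cell precursors, while other cells use ALAS1. Mature mouse red cells have no nucleus, but young ones still hold globin and Alas2 mRNA, so unperfused brain yields these transcripts from blood in its vessels. Globin transcripts have also been described in some neurons, among them dopamine neurons, and in oligodendrocytes. In a bulk sample, fewer cells of a type and less RNA per cell cannot be told apart.

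The alpha pair and the beta pair are near-identical copies, which bears on how reads are shared between their rows. In mm10, Hbb-bs (ENSMUSG00000052305) lies at chr7:103826534-103828096 and Hbb-bt (ENSMUSG00000073940) at chr7:103812524-103813996, both on the minus strand. Hba-a1 (ENSMUSG00000069919) lies at chr11:32283511-32284465 and Hba-a2 (ENSMUSG00000069917) at chr11:32296489-32297298, both on the plus strand, and Alas2 (ENSMUSG00000025270) lies at chrX:150547375-150570638 on the plus strand. Each globin gene has 3 exons and Alas2 has 11 in the first-numbered GENCODE model of each. The coding sequences of Hba-a1 and Hba-a2 (429 bases) differ at 1 position, C381T, and those of Hbb-bs and Hbb-bt (444 bases) at 1 position, C417T, counted from the A of the start codon, with the first gene's base first. The 41 coding bases around each difference, all in exon 3, are shown with the differing base in capitals.
Hba-a1 (chr11:32284323-32284363, plus strand, mm10): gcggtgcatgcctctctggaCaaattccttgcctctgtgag
Hba-a2 (chr11:32297140-32297180, plus strand, mm10): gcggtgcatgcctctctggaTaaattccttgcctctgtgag
Hbb-bs (chr7:103826672-103826712, minus strand, mm10): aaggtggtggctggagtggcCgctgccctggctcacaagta
Hbb-bt (chr7:103812663-103812703, minus strand, mm10): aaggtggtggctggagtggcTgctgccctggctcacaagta

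The copies differ more outside the coding sequence. Of the 100-base windows of the Hba-a1 transcript, 56.5% occur unchanged in Hba-a2, and 74.5% of those of Hba-a2 occur in Hba-a1. The shares were 62.6% for Hbb-bs windows in Hbb-bt and 54.8% for Hbb-bt windows in Hbb-bs. No source used here says how reads that match both copies were counted, so the split within each pair is uncertain, and the sums of each pair are given beside the single genes.

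The upstream sequences are shown because the 5 genes are known targets of shared red cell factors. Whether these sequences bear on the levels in these libraries was not tested. The 110 bases before each RefSeq start (GRCm38.p6) are given, with 4 motifs in capitals wherever they occur on either strand. The CCAAT box was searched as CCAAT, the CACCC box, which erythroid KLF1 can bind, as CACCC, the TATA-like element as ATATAA, and the GATA motif, named for the factors that bind it, as GATAA.
Hbb-bs (chr7:103827929-103828038, minus strand): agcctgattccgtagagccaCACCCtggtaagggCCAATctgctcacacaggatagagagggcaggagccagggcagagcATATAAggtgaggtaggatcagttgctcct
Hbb-bt (chr7:103813924-103814033, minus strand): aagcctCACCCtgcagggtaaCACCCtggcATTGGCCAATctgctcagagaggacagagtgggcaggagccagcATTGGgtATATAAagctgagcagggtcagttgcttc
Hba-a1 (chr11:32283562-32283671, plus strand): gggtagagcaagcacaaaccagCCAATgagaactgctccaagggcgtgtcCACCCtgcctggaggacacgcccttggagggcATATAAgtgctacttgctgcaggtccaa
Hba-a2 (chr11:32296382-32296491, plus strand): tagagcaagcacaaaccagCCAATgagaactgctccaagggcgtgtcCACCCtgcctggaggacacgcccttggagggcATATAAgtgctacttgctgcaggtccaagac
Alas2 (chrX:150547307-150547416, plus strand): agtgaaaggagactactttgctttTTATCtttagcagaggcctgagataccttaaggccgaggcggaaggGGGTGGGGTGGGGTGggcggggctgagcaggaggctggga

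All 4 globin genes held each of the 4 motifs within 250 bases before the start, and Alas2 held the CACCC box and the GATA motif. The TATA-like element began 28 to 31 bases before the start in the 4 globin genes, and their GATA motif lay beyond the bases printed, beginning 182 to 209 bases before the start. In Alas2 the CACCC box reads on the opposite strand 3 times in a row, as GGGTG, and the GATA motif as TTATC. In Hbb-bt the CCAAT box also reads on the opposite strand, as ATTGG, directly beside the forward copy and again nearer the start. Among 32851 RefSeq promoters of the same length, 33.8% held the CCAAT box, 52.0% the CACCC box, 9.10% the TATA-like element and 22.6% the GATA motif on either strand. Hba-a1 and Hba-a2 share an identical stretch of 247 bases there, whereas the longest stretch shared by Hbb-bs and Hbb-bt is 14 bases. The GENCODE models of some of these genes begin upstream of the RefSeq starts, and a match of letters is no evidence of binding.

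Library totals were 13675945 to 24802272 counts, and levels are CPM, each gene's count scaled to a common library total, after library sizes were adjusted by the trimmed mean of M-values (TMM). The third D50A library, D50A 3, had the smallest total and stood apart from the other 7. Mitochondrially encoded genes took 11.9% of its counts, against 4.08% to 5.14% in the other libraries, and short transcripts were high and long ones low in it. Libraries also differed in tissue content: 12 cerebellar neuron markers summed to 1027 to 1431 CPM in D50A 2 to D50A 5, and to 256 CPM in D50A 1 and 264 to 280 CPM in the 3 WT libraries. Pituitary hormone genes summed to at most 14.6 CPM in D50A libraries, and to 20.3, 847 and 4.51 CPM in WT 1 to WT 3. The 13 markers of neurons, astrocytes and oligodendrocytes had sums of 14814 to 20592 CPM over the D50A libraries and 15254 to 15541 CPM over the WT libraries. Cstf2 itself was at 108 ± 25.3 CPM in D50A (SD, n = 5) and 127 ± 6.66 CPM in WT brains (SD, n = 3), which does not check a point mutation.

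None of the 5 genes differed between D50A and WT brains beyond the spread between libraries. Their D50A means were above the WT means, and in every case library D50A 3 held the highest value. With that library left out, the estimated D50A over WT log2 fold changes of the 5 genes lay between -0.11 and -0.012. Members called by edgeR's quasi-likelihood test at an adjusted p under 0.05 numbered 0, where 0% of all tested genes were called higher and 0% lower. At an unadjusted p under 0.05 edgeR counted 420 genes, none of them a member, while DESeq2 called 31 genes higher and 6 lower, and limma-voom, which weighted libraries by their quality, called 315 and 202, again without a member. DESeq2 gave Hbb-bs and Hbb-bt no p-value because of an outlying count. D50A and WT values overlapped for all 5 genes. The lowest D50A value exceeded the highest WT value for 3.22% of all tested genes, and the highest D50A value lay under the lowest WT value for 4.24%.

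Hbb-bs, the beta globin with more counts, was at 227, 277, 1641, 175 and 336 CPM in D50A 1 to D50A 5. It was at 267, 209.5 and 309.7 CPM in WT 1 to WT 3. D50A 3 was 4.89 times the next highest library, and the other 4 D50A values spanned the WT range on both sides. The mean was 531 ± 623 CPM in D50A (SD, n = 5) and 262 ± 50.3 CPM in WT brains (SD, n = 3), and 254 ± 68.7 CPM in the 4 D50A brains without D50A 3. The log2 fold change was 1.02 (SE 0.76, 95% interval -0.72 to 2.76; edgeR adjusted p = 0.837). Without D50A 3 it was -0.036 (SE 0.20, 95% interval -0.47 to 0.40; edgeR adjusted p = 0.975).

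Hbb-bt, the other adult beta globin of the same cluster, was at 31.9, 39.4, 256, 30.5 and 44.5 CPM in D50A 1 to D50A 5. It was at 37.9, 32.8 and 49.2 CPM in WT 1 to WT 3. D50A 3 was again highest, 5.21 times the next library, which was WT 3. The log2 fold change was 1.01 (SE 0.78, 95% interval -0.77 to 2.79; edgeR adjusted p = 0.837). Without D50A 3 it was -0.11 (SE 0.16, 95% interval -0.46 to 0.23; edgeR adjusted p = 0.872).

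Hba-a1, an alpha globin, was at 132, 149, 374, 83.3 and 141 CPM in D50A 1 to D50A 5, and at 156, 93.6 and 136 CPM in WT 1 to WT 3. D50A 3 was 2.40 times the next library, WT 1, a smaller step than for the beta globins. The log2 fold change was 0.45 (SE 0.46, 95% interval -0.60 to 1.51; edgeR adjusted p = 0.837). Without D50A 3 it was -0.012 (SE 0.20, 95% interval -0.46 to 0.44; edgeR adjusted p = 0.990).

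Hba-a2, the other adult alpha globin, was at 16.7, 18.7, 64.3, 11.8 and 15.9 CPM in D50A 1 to D50A 5, and at 17.9, 12.05 and 19.6 CPM in WT 1 to WT 3. D50A 3 was 3.28 times WT 3, the next highest. The log2 fold change was 0.62 (SE 0.56, 95% interval -0.67 to 1.91; edgeR adjusted p = 0.837), and without D50A 3 it was -0.051 (SE 0.18, 95% interval -0.45 to 0.34; edgeR adjusted p = 0.957). Summing the copies gave a log2 fold change of 0.47 (SE 0.47) for the alpha pair and 1.02 (SE 0.76) for the beta pair, both with an edgeR adjusted p of 0.837.

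Alas2, the erythroid heme synthesis enzyme, was at 8.99, 9.68, 27.5, 5.09 and 10.6 CPM in D50A 1 to D50A 5, and at 11.3, 6.18 and 9.504 CPM in WT 1 to WT 3. These rested on 96 to 297 counts in D50A and 122 to 234 counts in WT libraries. D50A 3 was 2.44 times the next highest library, WT 1. The log2 fold change was 0.45 (SE 0.51, 95% interval -0.71 to 1.61; edgeR adjusted p = 0.837), and without D50A 3 it was -0.049 (SE 0.25, 95% interval -0.60 to 0.50; edgeR adjusted p = 0.972). The 2-sided exact permutation test of mean log2 CPM over 56 assignments gave p = 0.75 for Hbb-bs, 0.929 for Hbb-bt and 0.821 for each of the other 3 genes, and the smallest p that design allows is 0.0357.

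**Figure D1:**
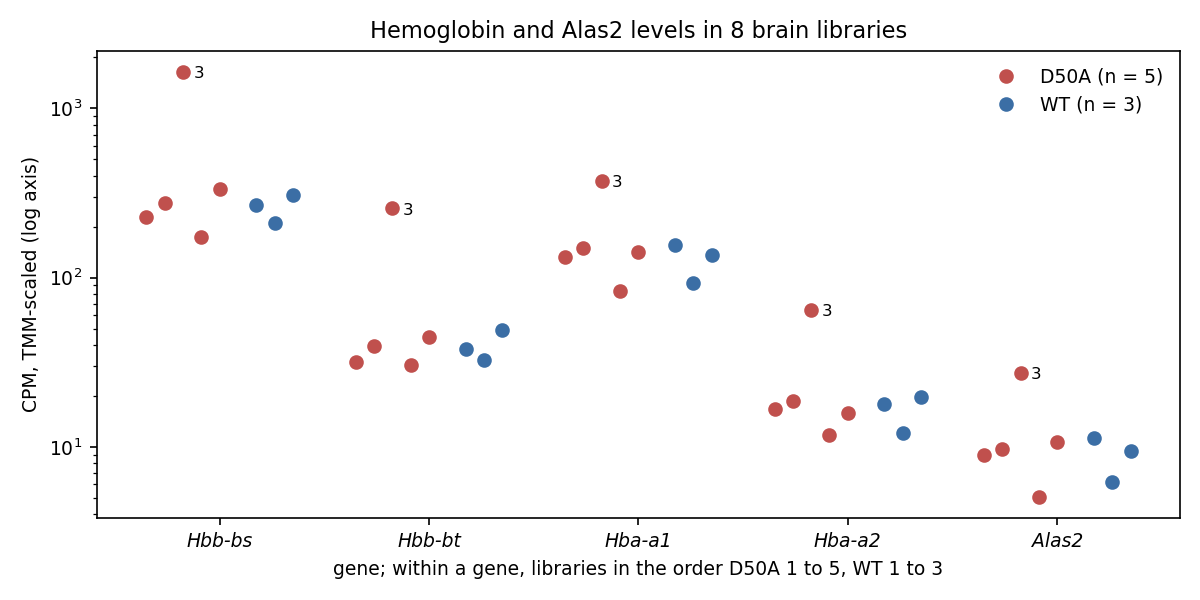
TMM-scaled CPM (log axis) of the 5 genes, 1 point for each of the 5 D50A and 3 WT libraries; the library marked 3 is D50A 3. D50A 3 is the highest point of every gene, at 1641 CPM for Hbb-bs, and the other 4 D50A points overlap the WT points.

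**Figure D2:**
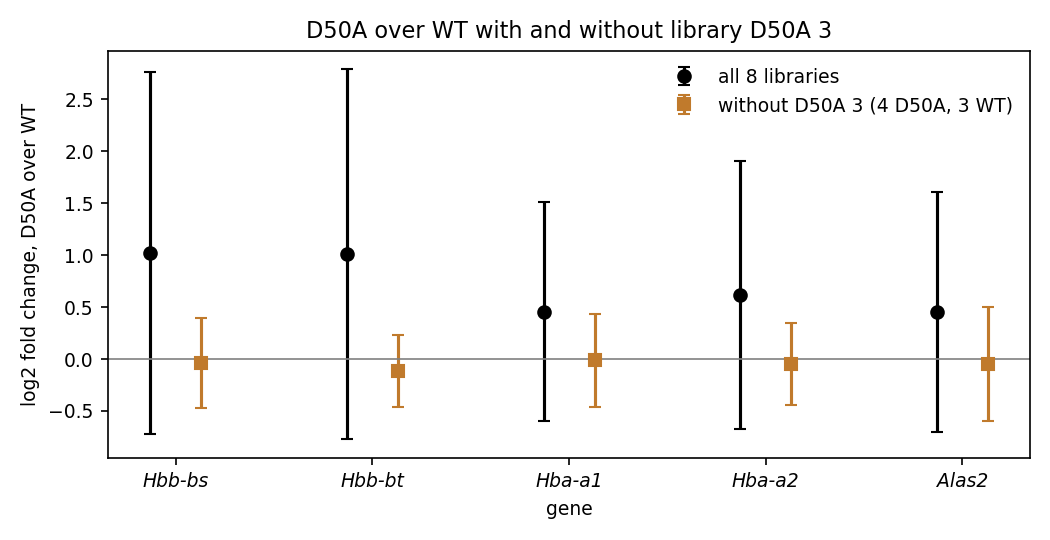
D50A over WT log2 fold changes from edgeR with 95% intervals, from all 8 libraries (circles) and without D50A 3 (squares). With all libraries the estimates lie between 0.45 and 1.02, and without D50A 3 between -0.11 and -0.012, and every interval includes 0.

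Levels per length put the genes in the same order in each of the 8 libraries. Per kilobase of transcript, Hbb-bs averaged 846 ± 993 CPM in D50A and 417 ± 80.1 CPM in WT brains (SD, n = 5 and 3). Hba-a1 followed at 251 ± 162 CPM per kb in D50A and 183.5 ± 45.3 in WT. Hbb-bt came next at 115 ± 140.03 CPM per kb in D50A and 56.9 ± 11.98 in WT. Hba-a2 was at 46.0 ± 39.4 CPM per kb in D50A and 29.8 ± 7.15 in WT, and Alas2 was lowest at 6.07 ± 4.27 in D50A and 4.41 ± 1.27 in WT. Within the WT group no 2 neighbours in this order overlapped in range. The positions of Hbb-bt and Hba-a2 depend on how reads shared with their copies were counted.

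The libraries also kept much of their order from gene to gene. D50A 4 was lowest for all 5 genes, and WT 2 was second lowest for 4 of them, the exception being Hbb-bt, where D50A 1 was. The 4 globin genes together made up 408, 484, 2335, 301 and 537 CPM in D50A 1 to D50A 5, and 479, 348 and 514 CPM in WT 1 to WT 3. Leaving aside D50A 3, these sums ranged from 301 to 537 CPM in the 4 D50A brains and from 348 to 514 CPM in the 3 WT brains. Within a genotype the 5 genes varied more than most genes: the SD of log2 CPM was 0.26 to 0.47 over the 4 D50A libraries without D50A 3 and 0.28 to 0.44 over the WT libraries, against medians over all tested genes of 0.15 and 0.10.

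Across the 8 libraries, log2 CPM was correlated in all 10 pairs of the 5 genes, with Pearson's r from 0.90 to 0.99 (exact permutation, adjusted over 10 pairs, p from 0.00124 to 0.00761) and Spearman's rho from 0.71 to 0.98 (exact permutation, adjusted p from 0.00397 to 0.0576). All pairs passed the Pearson test, and by Spearman's rho Hbb-bt with Hba-a1 (adjusted exact permutation p = 0.0509) and Hba-a2 with Alas2 (p = 0.0576) did not. D50A 3 is far from the rest on every axis. With it left out, r ranged from 0.64 to 0.99 over the 7 libraries, and 7 of 10 pairs kept an unadjusted exact permutation p under 0.05. The 3 that did not were Hbb-bt with Hba-a1 (r = 0.64, exact permutation p = 0.129), with Hba-a2 (r = 0.71, p = 0.0825) and with Alas2 (r = 0.68, p = 0.098). With the 2 libraries farthest from the median left out, r ranged from 0.61 to 0.97.

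The closest pair was Hba-a1 and Alas2, which lie on different chromosomes and share no sequence copy. Over 8 libraries r was 0.99 and rho 0.98. Leaving out D50A 3 gave r = 0.99, and leaving out D50A 4 as well gave r = 0.97. The beta pair Hbb-bs and Hbb-bt had r = 0.99 and rho = 0.95 over 8 libraries, with r = 0.92 without D50A 3. The points of each pair share a library, its depth and its scaling.

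Ratios between the genes within a library do not depend on the scaling. Beta globin counts over alpha globin counts were 1.74, 1.89, 4.33, 2.16 and 2.42 in D50A 1 to D50A 5, and 1.76, 2.29 and 2.31 in WT 1 to WT 3. Again D50A 3 stood apart, at 4.33 against 1.74 to 2.42 in the other 7 libraries, and the D50A and WT values overlapped. The D50A mean was 2.51 ± 1.05 (SD, n = 5) and 2.05 ± 0.302 without D50A 3 (n = 4), and the WT mean 2.12 ± 0.315 (n = 3; 2-sided exact permutation p = 0.75, adjusted over 5 ratios p = 0.857).

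Alas2 per 1000 globin counts was 22.0, 20.002, 11.8, 16.9 and 19.8 in D50A 1 to D50A 5, and 23.5, 17.8 and 18.5 in WT 1 to WT 3. D50A 3 was the lowest, while Alas2 per 100 alpha globin counts was 6.28 in it, inside the range of 5.35 to 6.78 of the other 7 libraries. Alpha globins and Alas2 were thus in a similar proportion in all 8 libraries, and the beta globins were not in D50A 3. Neither Alas2 ratio differed between D50A and WT (exact permutation p = 0.643 and 0.75, adjusted over 5 ratios p = 0.857 for both).

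Within the copies, Hbb-bs over Hbb-bt was 5.74 to 7.53 in D50A and 6.29 to 7.06 in WT libraries, with 6.40 in D50A 3. Hba-a1 over Hba-a2 was 5.81 to 8.85 in D50A and 6.92 to 8.69 in WT libraries, and the lowest value was that of D50A 3. Neither ratio differed between the genotypes (exact permutation p = 0.679 and 0.857, both 0.857 adjusted over 5 ratios).

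**Figure D3:**
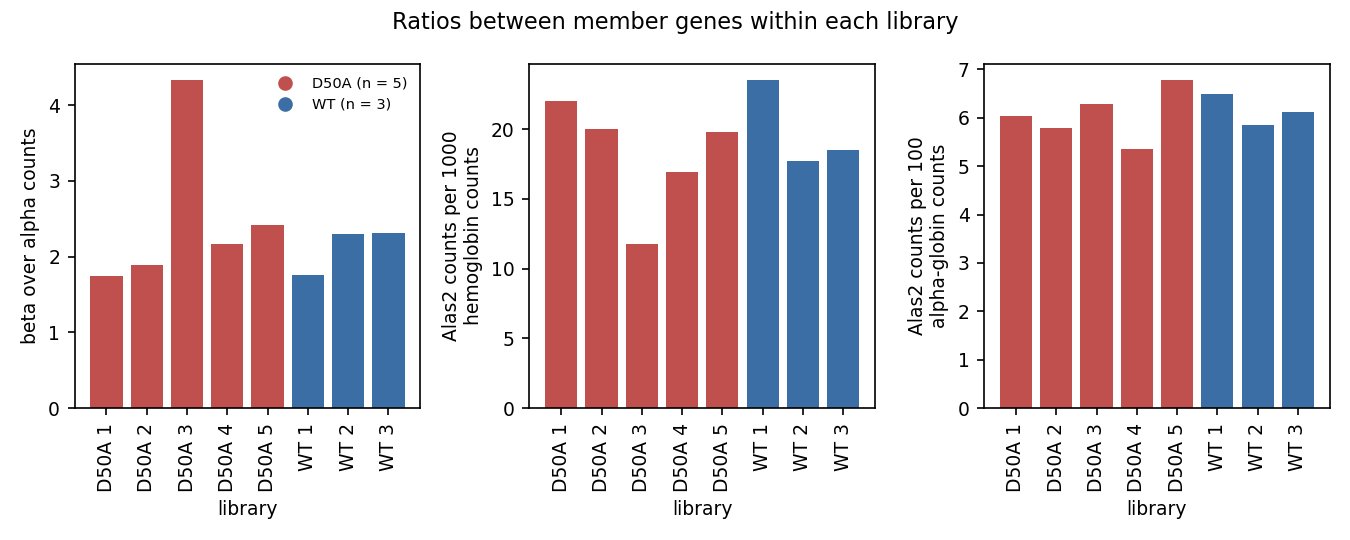
Ratios of counts in each library, bars for D50A 1 to 5 and WT 1 to 3: beta over alpha globin (left), Alas2 per 1000 globin counts (middle) and Alas2 per 100 alpha globin counts (right). D50A 3 has the highest beta over alpha ratio, 4.33, and the lowest Alas2 per 1000 globin counts, 11.8, and lies inside the range of the others for Alas2 per 100 alpha globin counts.

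The high values of D50A 3 were set beside those of other genes of similar length, because its short transcripts were high as a class. Over genes with a mean above 4 CPM, the median log2 of D50A 3 over the WT mean was 1.93 for 679 transcripts under 1 kb (quartiles 1.17 and 2.49), 0.91 for 2321 of 1 to 2 kb, -0.045 for 5066 of 2 to 4 kb (quartiles -0.85 and 0.64) and -0.94 for 4442 over 4 kb. In the other 7 libraries, each WT library being set against the other WT libraries, these medians lay between -0.087 and 0.18.

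The globin transcripts are short, at 628 bases for Hbb-bs, 703 for Hbb-bt, 699 for Hba-a1 and 554 for Hba-a2. Their log2 of D50A 3 over the WT mean was 2.65 for Hbb-bs, 2.68 for Hbb-bt, 1.54 for Hba-a1 and 1.96 for Hba-a2. Of transcripts under 1 kb, 79.4% lay below Hbb-bs, 80.3% below Hbb-bt, 35.2% below Hba-a1 and 52.4% below Hba-a2. All 4 were therefore within the spread of short transcripts in that library, with the beta globins above the upper quartile. Alas2, at 2037 bases, had a log2 of 1.61, above 95.7% of transcripts of 2 to 4 kb. Its length is close to the lower edge of that class, and among transcripts of 1 to 2 kb it lay above 80.9%, with an upper quartile of 1.44 there. How much of the high values is due to transcript length and how much to blood content was not tested.

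**Figure D4:**
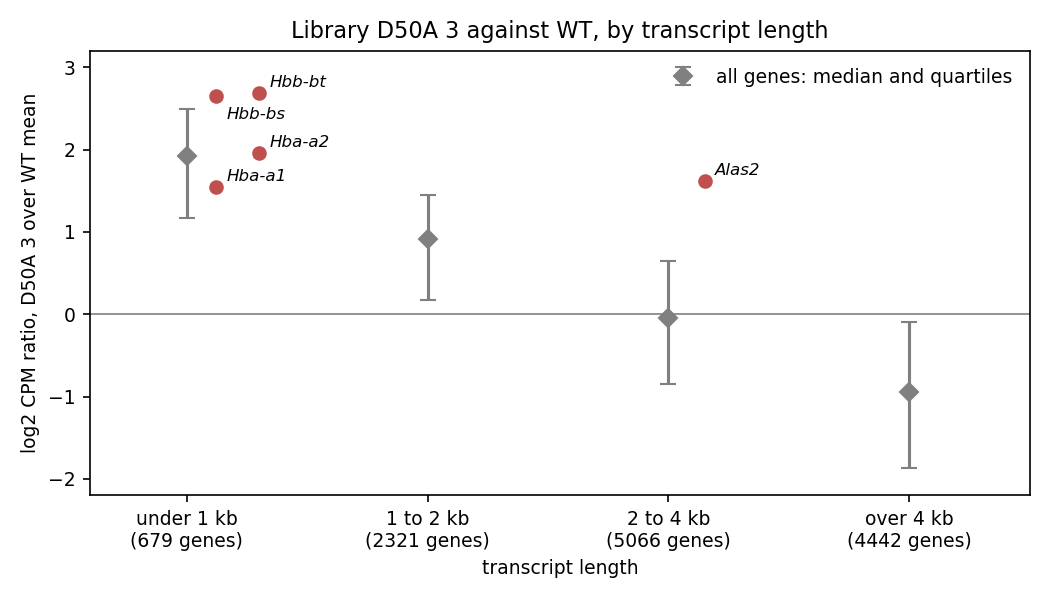
Log2 of CPM in D50A 3 over the WT mean, by transcript length: grey diamonds and bars are the median and quartiles of all genes with a mean above 4 CPM, red points the 5 genes, each drawn in its own length class. The 4 globin genes lie among the short transcripts, whose median is 1.93, and Alas2 at 1.61 lies near the lower edge of its class, whose upper quartile is 0.64, next to the class of 1 to 2 kb, whose upper quartile is 1.44.

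Other globins were low or did not follow the blood globins across the libraries other than D50A 3. Hbq1a, a minor gene of the alpha cluster, had 6 to 24 counts in D50A and 4 to 12 in WT libraries. Its log2 fold change was 0.99 (edgeR adjusted p = 0.837). Hbq1a was highest in D50A 3, at 2.22 CPM against 0.19 to 0.71 CPM in the other 7 libraries. Hbq1b had at most 7 counts and Hbb-y at most 2 in any library. Ngb, the neuronal globin neuroglobin, was at 10.3, 9.94, 30.7, 11.1 and 10.3 CPM in D50A 1 to D50A 5, and at 11.3, 10.1 and 10.3 CPM in WT 1 to WT 3. It too was high in D50A 3, and flat across the other 7 libraries. Cygb, the widely expressed cytoglobin, was at 55.8 ± 2.73 CPM in D50A and 51.3 ± 2.97 CPM in WT brains (SD, n = 5 and 3), with 52.3 CPM in D50A 3. Mb (myoglobin) had 5 to 20 counts in D50A and 10 to 12 in WT libraries, and Adgb (androglobin) 9 to 47 in D50A and 25 to 41 in WT libraries. Of 5 other globins tested none passed.

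Several markers of red cell precursors were at or near 0 in both genotypes. Gata1 and Klf1, transcription factors of the lineage, reached at most 0.119 and 0.424 CPM in any library, and Rhag (an Rh-complex protein) and Kel (a blood group antigen) at most 0.0925 and 0.106 CPM. Slc4a1, the red cell anion exchanger, was at 0.41 to 1.19 CPM over the D50A libraries and 0.30 to 0.63 CPM over the WT libraries.

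Of 35 red cell membrane and late-maturation genes, 34 were in the table, 23 were tested and 0 passed the edgeR test, with a median log2 fold change of 0.20 and 0.050 without D50A 3, against -0.012 and -0.0017 over all genes tested. The abundant members of that list are also brain genes, for example Car2 (a carbonic anhydrase) and Sptb (a spectrin), so its sum of 1955 to 2786 CPM over the D50A libraries and 1948 to 1960 CPM over the WT libraries is not a measure of blood. Of 12 regulators of the lineage, 8 were tested and 0 passed, with a median of 0.0024 and 0.042 without D50A 3. By limma-voom with sample weights, Ank1 (log2 fold change 0.42, adjusted p = 0.0379) and Epb41 (0.72, adjusted p = 0.00371), which encode membrane skeleton proteins also made in neurons, were higher and Bcl11a, a repressor of globin genes that neurons also express, was lower (log2 fold change -0.30, adjusted p = 0.0379). Of the 23 tested red cell genes limma-voom thus called 2 higher, where it called 1.87% of all tested genes higher and 1.2% lower. The libraries also differ in cerebellar content, as given above, with D50A 1 at the level of the WT libraries, and the part of that content in these values was not tested.

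The shared steps of heme synthesis did not pass either. All 16 genes of that list were tested and 0 passed the edgeR, DESeq2 or limma-voom test, with a median log2 fold change of 0.16 and 0.022 without D50A 3. Urod, the fifth enzyme of the pathway, had an edgeR log2 fold change of 0.44, and of 0.13 without D50A 3. Fech, which inserts iron into the ring, was at 48.9 to 89.8 CPM over the D50A libraries and 51.4 to 58.1 CPM over the WT libraries. Alas1, the enzyme that stands in for ALAS2 outside the red cell lineage, was at 19.2 to 47.5 CPM over the D50A libraries and 38.7 to 50.2 CPM over the WT libraries, and the lowest value was that of D50A 3. Among 22 genes that bind, take up or break down hemoglobin, heme and iron, 20 were tested and 0 passed under any of the 3 tools, with a median of -0.055 and -0.036 without D50A 3. Hmox1, the inducible heme oxygenase, was at 1.88 to 3.47 CPM over the D50A libraries and 2.16 to 3.15 CPM over the WT libraries.

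The neutrophil transcripts S100a8 and S100a9 were also highest in D50A 3 but ordered the other libraries differently from the globins. S100a8, a calcium-binding protein abundant in neutrophils, was at 4.94, 2.79, 23.2, 11.5 and 7.17 CPM in D50A 1 to D50A 5, and at 0.914, 1.72 and 7.96 CPM in WT 1 to WT 3. Its partner S100a9 was at 4.94, 2.89, 24.0, 13.6 and 10.04 CPM in D50A 1 to D50A 5, and at 0.962, 0.911 and 9.39 CPM in WT 1 to WT 3. D50A 4, lowest for the globins, was second highest for both, and WT 1, above the middle for Hba-a1 and Alas2, was among the lowest. The edgeR log2 fold changes were 1.49 for S100a8 and 1.56 for S100a9, and 0.96 and 1.13 without D50A 3 (edgeR adjusted p = 0.837 with all libraries). Of 9 neutrophil markers tested 0 passed, with a median of 0.81 and 0.71 without D50A 3, and the list summed to 16.8 to 64.0 CPM over the D50A libraries and 11.5 to 39.4 CPM over the WT libraries. Of the other tested markers, Camp and Lcn2 were also highest in D50A 3. Csf3r and Mmp9 were lowest there, Ngp was highest in D50A 4, and Ltf and Retnlg were highest in WT 3. The S100a8 and S100a9 transcripts are short, at 486 and 519 bases. Their log2 of D50A 3 over the WT mean was 2.72 and 2.67, where transcripts under 1 kb had quartiles of 1.17 and 2.49. The part of length in these values was not tested.

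The remaining blood and vessel lists showed no call by edgeR or DESeq2. Tested genes numbered 8 for platelets, 7 for lymphocytes, 4 for monocytes, 20 for endothelium, 17 for mural and meningeal cells and 12 for choroid plexus. Their median log2 fold changes were -0.048, 0.15, 0.46, -0.12, 0.052 and -0.095 in that order, and without D50A 3 they were 0.0050, -0.028, 0.51, -0.015, -0.00034 and -0.0052. At an unadjusted edgeR p under 0.05, which 2.5% of all tested genes reached, there was 1 monocyte gene and 1 choroid plexus gene. Limma-voom, which called 1.2% of all tested genes lower, called 1 lymphocyte gene lower, the immunoglobulin gene Ighm (log2 fold change -0.34, adjusted p = 0.0326). Lymphocyte markers summed to 66.4 CPM in D50A 3, to 28.0 to 33.5 CPM in the other D50A libraries and to 33.4 to 35.4 CPM in WT libraries. Trbc2 alone gave 26.2 CPM of this sum in D50A 3, against 4.72 to 6.24 CPM in the other 7 libraries. Without Trbc2 the sum was 40.2 CPM in D50A 3, 22.4 to 27.9 CPM in the other D50A libraries and 28.1 to 29.2 CPM in WT libraries. Endothelial markers summed to 878 to 984 CPM in the 4 D50A libraries other than D50A 3, to 1537 CPM in D50A 3 and to 884 to 926 CPM in WT libraries. The high sum of D50A 3 rested on Bsg, a glycoprotein that other cells also express, at 1042 CPM there against 348 to 399 CPM in the other 7 libraries. Without Bsg the list summed to 495 CPM in D50A 3, to 483 to 606 CPM in the other D50A libraries and to 520 to 578 CPM in WT libraries, and 12 of its 20 genes were below their WT mean in D50A 3. Cdh5, the cadherin of endothelial junctions, was at 2.13 CPM in D50A 3, at 9.94 to 15.7 CPM in the other D50A libraries and at 10.1 to 13.8 CPM in WT libraries. Endothelial genes differed in this respect. The log2 of D50A 3 over the WT mean was -2.47 for Cdh5 (3995 bases) and -0.37 for Mfsd2a (2151 bases). It was 1.36 for Itm2a (1744 bases) and 0.15 for Ly6c1 (844 bases). The part of length in the endothelial values was not tested. Mural and meningeal markers summed to 474 CPM in D50A 3, 317 to 416 CPM in the other D50A libraries and 326 to 385 CPM in WT libraries. Without Rgs5, a pericyte gene, these sums were 297 CPM in D50A 3, 225 to 326 CPM in the other D50A libraries and 235 to 299.9 CPM in WT libraries. Pdgfrb, a receptor of pericytes, was at 3.98 CPM in D50A 3, at 20.3 to 28.2 CPM in the other D50A libraries and at 23.4 to 29.3 CPM in WT libraries. It was not typical of its list, where 6 of 17 genes were below their WT mean in D50A 3. The log2 of D50A 3 over the WT mean was -2.67 for Pdgfrb and -1.91 for Anpep, but 1.62 for Tagln and 1.65 for Ogn. The Pdgfrb transcript has 5407 bases, and transcripts over 4 kb had a median of -0.94 in D50A 3. The part of length in the mural values was not tested. Of 6 dopamine neuron markers tested 0 passed under the 3 tools, with a median of 0.090 and 0.15 without D50A 3.

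**Figure D5:**
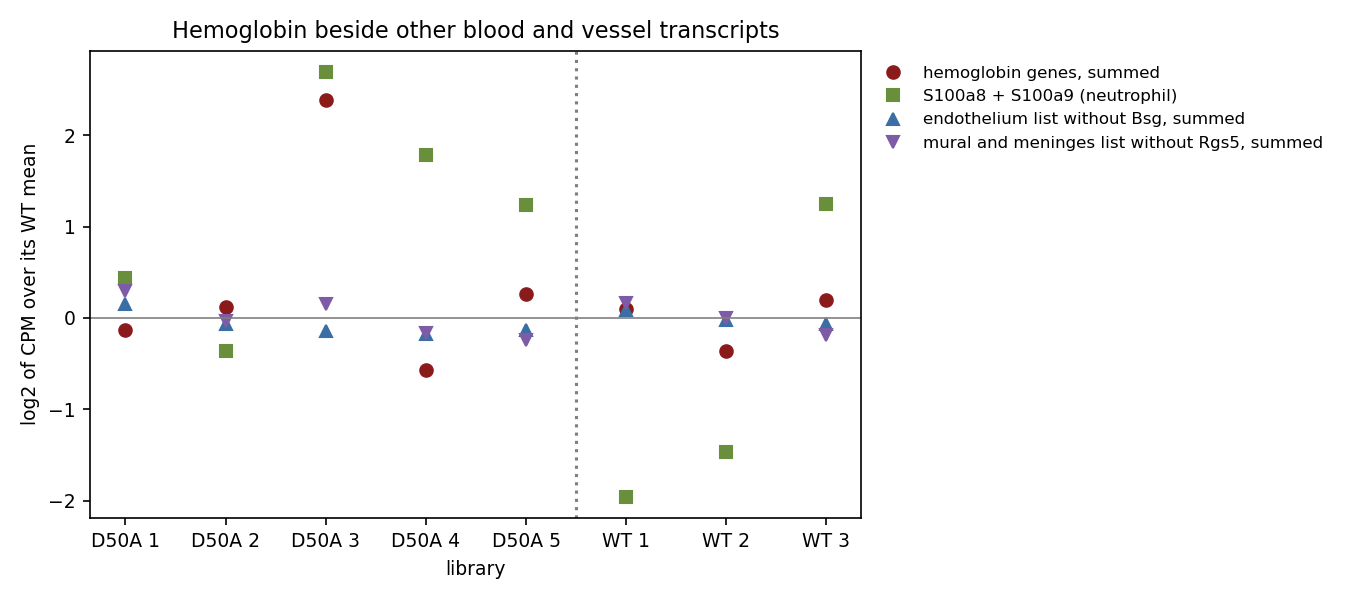
Log2 of CPM over its WT mean, by library, for the summed globin genes (circles), S100a8 plus S100a9 (squares), the endothelial list without Bsg (triangles up) and the mural and meningeal list without Rgs5 (triangles down). D50A 3 is highest for the globins and for the neutrophil pair and not for the other 2 series, and in D50A 4 the globin sum is lowest, at -0.57, while the neutrophil pair is at 1.78.

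The genes whose pattern was most like that of the globins over the 8 libraries depended on D50A 3. By the Pearson correlation of log2 CPM with the mean of the 4 globin genes, the 10 highest were Faim, Rbmxl1, Nqo2, Hnrnpk, Ifi35, Taf12, Cdc42se2, Ankrd46, Xlr and Dnajb3, with r from 0.98 to 0.99. Such values were common: 2530 of 16805 genes (15.1%) had r above 0.9. Without D50A 3, 32 genes (0.190%) had r above 0.9 over 7 libraries, led by Mfsd8 at 0.97 and Dcx at 0.96, and the 2 lists of 10 shared 0 genes. Alas2, left out of the mean, had r = 0.96 with it over 8 libraries and 0.94 over 7.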

How the data were processed

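Deposited values are raw counts per gene in 5 D50A and 3 WT brain libraries, made by the authors; CASAVA 1.8, STAR 2.5, HTSeq 0.6.1, DESeq2 2 and mm10 are named, per the submitters' processing notes, with no order. No label, header or note used here gives the annotation release, the read length, the strand setting or the treatment of reads matching several genes. Genes were filtered with filterByExpr, scaled by TMM and tested with edgeR 4.0.16 (quasi-likelihood, R 4.3.3), with Benjamini-Hochberg adjustment over 16810 genes and a threshold of 0.05; alternatives used DESeq2 1.42.0 and limma 3.58.1. Log2 CPM used a prior count of 2. Depth was 13675945 to 24802272 counts. Each library is 1 animal, so p-values measure spread between animals and library preparation together. Replicate numbers follow accession order and pair no animals. Transcript lengths and coordinates came from GENCODE M21 (mm10), and promoters from RefSeq (GRCm38.p6). For every gene the model used was the principal transcript by the APPRIS tag, or the longest where several tied or none was tagged. For each member this was the first-numbered model. All 5 members matched both.

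The members and gene lists were chosen with earlier results of these data known. Named genes are the members, other globins with a count, up to 4 genes per list by unadjusted p and 2 by mean CPM, and the 10 most alike in pattern. Gata1, Klf1, Rhag, Kel, Slc4a1, Car2, Sptb, Alas1, Hmox1, Ank1, Epb41, Bcl11a, Ighm, Camp, Csf3r, Mmp9, Ltf, Retnlg, Cdh5, Pdgfrb, Mfsd8 and Dcx were added where outside that rule, after their values were seen. Epb41 is listed under an older symbol. Some genes of the lists are not reported here by name. The edgeR script was tested on simulated counts.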

Additional observations from a re-analysis of the deposited data

Results flagged for a closer look

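D50A 3 lay far above the other 4 D50A libraries for each of the 5 genes, with a gap to the next D50A library that was large against the range of the group. Its values were 1641 CPM for Hbb-bs, 256 CPM for Hbb-bt, 374 CPM for Hba-a1, 64.3 CPM for Hba-a2 and 27.5 CPM for Alas2. Its beta over alpha globin count ratio, 4.33, was set apart in the same way. These 6 values come from 1 library and are not independent of each other. No D50A library was set apart for the other within-library ratios examined, and groups of 3, as the WT group is, were not examined.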

How the results depend on the processing

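No alternative called a member at an adjusted p under 0.05. Log2 fold changes over the fits that leave out 1 library ranged from -0.036 to 1.25 for Hbb-bs, -0.11 to 1.25 for Hbb-bt, -0.012 to 0.63 for Hba-a1, -0.051 to 0.80 for Hba-a2 and -0.049 to 0.65 for Alas2, and each low end is the fit without D50A 3. Limma-voom with sample weights, which gave D50A 3 a weight of 0.0272, gave -0.0263 for Hbb-bs, -0.0475 for Hbb-bt, -0.0448 for Hba-a1, -0.0484 for Hba-a2 and -0.0885 for Alas2. With D50A 1 and D50A 3 both left out, values were 0.019 for Hbb-bs, -0.0438 for Hbb-bt, -0.0298 for Hba-a1, -0.0726 for Hba-a2 and -0.0647 for Alas2. Other scalings, filters, the robust fit, DESeq2, summed copies and permutation kept the direction of the fit to all libraries. Genes called numbered 0 higher and 0 lower, against 31 and 6 by DESeq2 (no adjusted p for 7316 genes), 315 and 202 by limma-voom, and 558 and 507 without D50A 1 and D50A 3; leaving out 1 library gave 0 to 26 higher and 0 lower, the 26 without D50A 1, while without D50A 3, 1574 genes had an unadjusted p under 0.05. The cause was not tested. The correlations and the likeness ranking without 1 library, the vessel sums without their leading gene and the lymphocyte sum without Trbc2 were chosen after seeing the data. No paired analysis was possible because the labels carry no replicate numbers. With all 8 libraries the upper ends of the 95% intervals lay between 1.51 and 2.79 log2 units, against 0.23 to 0.50 without D50A 3, and differences inside the intervals were not detectable. The D50A mean of the beta over alpha ratio was 2.51, and 2.05 to 2.70 when 1 D50A library was left out. The low end was the value without D50A 3. A minimum of 10 counts of each gene removed none of the libraries.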
